A study of Mus musculus with 5 samples.

Results

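The 10 genes described here, Trem2, Tyrobp, Gpnmb, Spp1, Cd9, Cd63, Lgals3, Fabp5, Mmp12 and Atp6v0d2, are markers that have been used for lipid-associated macrophages, the lipid-loaded macrophages of fat tissue and arterial plaques. They were chosen by name, with earlier results of these data known. They are 10 of the 26189 genes in the deposited tables of molecules per cell. The cells came from the aortic arch of female mice, 12 weeks old per the labels, that were fed a Western diet for 18 weeks, in both groups alike. As the labelled age is shorter than the diet, it is not read here as the age at sampling. Cells positive for CD45, a surface protein of blood-derived cells, and negative for a dead-cell dye were sorted and captured on a BD Rhapsody cartridge. The 2 groups are C57BL/6J mice, called wild-type, and mice with the targeted allele C57BL/6N-Saa3tm1.1(KOMP)Vlcg/MbpMmucd, called Saa3-/-. The design text calls them littermates, and the strain names differ in C57BL/6 substrain. Each genotype is 1 pool of cells under 1 sample tag, an antibody-borne barcode, and the number of mice in a pool is not given in the sources used here. The 4 samples of bone-marrow-derived macrophages in the series were not analysed here.

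Of 889 cells in the pool labelled wild-type and 854 in the pool labelled Saa3-/-, 833 and 823 had at most 25% of their molecules from mitochondrial genes and were kept. They held 7289593 and 5231922 molecules in all, a median of 6415 and 4698 per cell, and no barcode occurred in both pools. With 1 pool per genotype there is no replicate, so no test was made, and a difference below is a difference between these pools. Every 95% interval covers counting error only, of molecules for levels and of cells for shares. The targeted gene, Saa3, went against the labels when summed over all kept cells, at 1079 molecules in the pool labelled wild-type and 1268 in the pool labelled Saa3-/-. Of the 1268, 1144 lay in fibroblast-gated cells, 799 and 325 of them in 2 cells. In macrophage-gated cells Saa3 had 852 and 37 molecules, the direction of the labels. Of the 852, 786 lay in 8 cells and 66 in the other 191, so this direction also rests on few cells. Directions below are given between pools as labelled.

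Macrophages that take up lipid-rich debris do so in part through TREM2, a surface receptor that binds lipids and apolipoproteins and signals through the adaptor TYROBP. Cells in this state turn on genes for lysosomes, lipid handling and matrix turnover. In plaques they are known as foam cells or as TREM2-positive foamy macrophages. Gpnmb and Cd63 encode lysosomal membrane proteins, Atp6v0d2 a subunit of the vacuolar proton pump, Fabp5 a fatty acid binding protein, Cd9 a tetraspanin, Lgals3 galectin-3, Spp1 the secreted phosphoprotein osteopontin and Mmp12 the elastin-cutting enzyme macrophage elastase.

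The upstream sequences of 4 members are shown because their correlations over macrophage-gated cells are described below and they lie on different chromosomes. RefSeq promoter windows on GRCm38.p6 were matched by symbol for 7 of the 10 members, in 9 windows, and not for Tyrobp, Fabp5 and Atp6v0d2. The 250 bases before the RefSeq start are given 5′ to 3′, and capitals mark the letters GAGGAAGT or their reverse complement, a PU.1-type motif.
Gpnmb, chr6:49036268-49036517, plus strand: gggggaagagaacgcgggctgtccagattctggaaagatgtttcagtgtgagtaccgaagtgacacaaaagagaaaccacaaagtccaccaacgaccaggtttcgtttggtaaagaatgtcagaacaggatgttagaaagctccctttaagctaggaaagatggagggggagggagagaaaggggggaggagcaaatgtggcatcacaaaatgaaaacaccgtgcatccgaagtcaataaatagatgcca
Trem2, chr17:48346151-48346400, plus strand: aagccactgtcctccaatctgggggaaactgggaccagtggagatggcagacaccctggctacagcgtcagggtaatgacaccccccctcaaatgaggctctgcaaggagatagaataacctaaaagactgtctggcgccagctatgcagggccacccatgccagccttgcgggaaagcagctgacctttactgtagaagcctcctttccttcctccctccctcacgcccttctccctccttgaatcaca
Spp1, chr5:104434861-104435110, plus strand: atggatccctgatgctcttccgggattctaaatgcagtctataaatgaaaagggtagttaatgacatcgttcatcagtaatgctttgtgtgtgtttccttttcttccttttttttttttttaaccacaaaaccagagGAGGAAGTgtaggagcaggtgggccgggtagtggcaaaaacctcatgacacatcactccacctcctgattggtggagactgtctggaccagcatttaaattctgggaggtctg
Mmp12, chr9:7344147-7344396, plus strand: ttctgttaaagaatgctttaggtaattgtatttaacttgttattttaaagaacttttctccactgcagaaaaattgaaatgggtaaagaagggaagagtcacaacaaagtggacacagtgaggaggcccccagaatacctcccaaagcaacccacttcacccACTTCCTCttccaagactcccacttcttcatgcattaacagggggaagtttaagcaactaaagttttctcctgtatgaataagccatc
The motif GAGGAAGT, searched on both strands, lay 113 bases before the start in Spp1 and 88 bases before it in the first window of Mmp12. It was found in 2 of the 9 windows, against 2.44% of 32851 windows of this length. TGACTCA, an AP-1-type motif whose reverse complement is TGAGTCA, was found in the second Mmp12 window and in 4.46% of all windows. CACGTG, the core of the sites of MiT/TFE factors, was in none of the 9 windows and in 6.02% of all. GTCACGTG, which contains CACGTG, was in none of them and in 1.85% of all. A match of letters is a description and shows no binding.

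Cell types were assigned cell by cell from markers that include none of the 10 genes. A cell took the type whose markers had the highest mean z-score, with at least 3 markers found and a lead of 0.25 over the next type, and other cells stayed ungated. The macrophage gate held 199 cells of the pool labelled wild-type and 139 of the pool labelled Saa3-/-, with medians of 9559 and 7097 molecules per cell. All 10 macrophage markers (such as C1qa, Csf1r and Adgre1) were present there, at a summed 16056 and 14825 CPM. CPM is a gene's molecules per 1000000 molecules of all genes in the cells of that gate. In the T cell gate the same markers summed to 652 and 645 CPM. In a CD45-positive sort, 79 and 67 cells were still gated as fibroblasts and 103 and 66 as smooth muscle cells.

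The label fits part of the list more closely than the rest. Among gated types that reached 20 cells in both pools, Trem2, Gpnmb, Mmp12 and Atp6v0d2 had their highest level in the macrophage gate in both pools. The other 6 did not. Trem2 was at 229 CPM (95% interval 210 to 249) in the macrophage gate of the pool labelled wild-type and at 404 CPM (370 to 441) in that of the pool labelled Saa3-/-. The next gates were at 57.3 CPM, in monocytes, and at 19.7 CPM, in dendritic cells. The macrophage gate held 78.4% and 81.7% of all Trem2 molecules, beside 32.1% and 24.1% of the molecules of all genes. Trem2 in T and B cells together, 13.8 and 11.2 CPM, serves as background, because these cells should lack it. The source of these molecules was not tested.

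Mmp12 was found at 137 CPM in the macrophage gate of the pool labelled wild-type and 373 CPM in that of the pool labelled Saa3-/-. Its monocyte levels were 53.2 and 24.3 CPM, and its T and B cell levels 9.57 and 10.4 CPM. Atp6v0d2 was the sparsest member, with 59 and 155 molecules in the macrophage gate, 25.2 and 123 CPM. No molecule of it was found in 32 and 29 monocyte-gated cells, which allows up to 12.3 and 18.2 CPM. In the pool labelled wild-type its macrophage interval (19.2 to 32.6 CPM) overlapped that of smooth muscle cells, at 16.1 CPM. Gpnmb was at 253 CPM in macrophages of the pool labelled wild-type, with an interval that overlapped that of dendritic cells at 204 CPM, and fibroblasts followed at 193 CPM. In the pool labelled Saa3-/- it was at 1410 CPM in macrophages and at 152 CPM in fibroblasts.

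Tyrobp, the adaptor, was not particular to macrophages. Its level was 1360 and 1594 CPM in the macrophage gate, 1975 and 1832 CPM in monocytes, and 858 and 1020 CPM in dendritic cells. It was also found at 3071 and 2712 CPM in the 8 and 18 neutrophil-gated cells and at 684 and 760 CPM in the 15 and 16 cells gated as natural killer cells, which pair TYROBP with activating receptors. The 2 tetraspanins had high levels outside macrophages as well. Cd9 was highest in smooth muscle cells (494 and 539 CPM) and fibroblasts (439 and 497 CPM), above macrophages at 263 and 320 CPM. Cd63 was highest in fibroblasts of the pool labelled wild-type, 734 CPM against 457 CPM in macrophages, and highest in macrophages of the pool labelled Saa3-/-, 760 CPM against 646 CPM in fibroblasts.

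Lgals3, Fabp5 and Spp1 also changed places between the pools. Lgals3 was at 2299 CPM in monocytes and 1639 CPM in macrophages of the pool labelled wild-type, and at 1983 and 3113 CPM in the same gates of the pool labelled Saa3-/-. Fabp5 was highest in dendritic cells of the first pool, at 430 CPM beside 169 CPM in macrophages. In the second pool it was highest in macrophages, at 963 CPM beside 135 CPM in dendritic cells. Spp1 was at 387 CPM in macrophages and 289 CPM in fibroblasts of the first pool. It was at 957 and 1931 CPM in these gates of the second pool, where 2 fibroblast-gated cells held 815 and 267 of the 1434 fibroblast molecules. The map of levels by gate sets all 10 genes side by side.

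**Figure D1:**
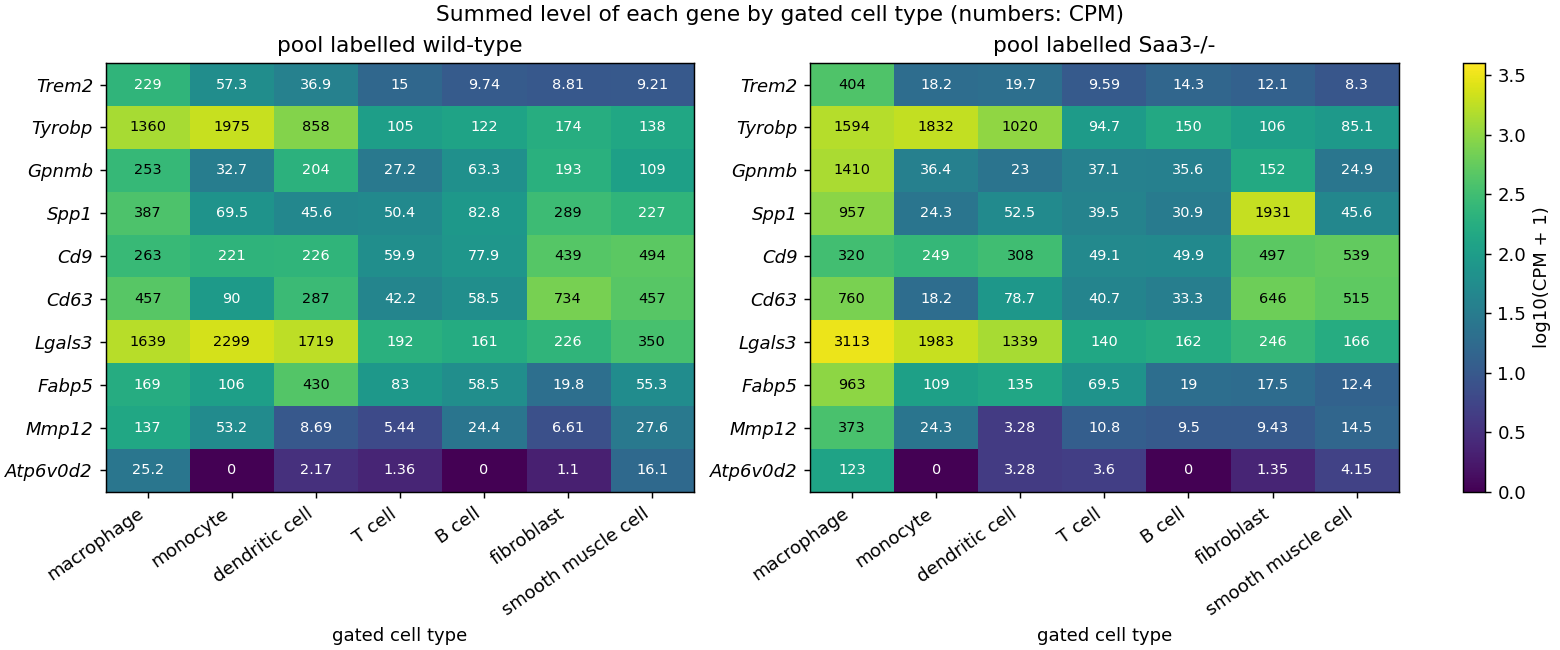
Summed level of each of the 10 genes (rows) in 7 gated cell types (columns), as CPM printed in the cell and coloured by log10(CPM + 1), for the pool labelled wild-type (left) and the pool labelled Saa3-/- (right). Trem2 is at 229 and 404 CPM in macrophages, while Cd9 is highest in smooth muscle cells in both pools.

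Within the macrophage gate the 10 members were all higher in the pool labelled Saa3-/-, and 5 of 10 were at least 2-fold higher. None was at least 2-fold lower. For comparison, 0.929% of the 7534 genes with at least 50 molecules over both pools were at least 2-fold higher and 0.982% at least 2-fold lower. As the 10 were chosen with earlier results of these data known, this comparison is a description. The median log2 ratio (pool labelled Saa3-/- over pool labelled wild-type) was 1.12 for the members and 0.03 for all tested genes. Fewer cells of a kind and less RNA per cell cannot be told apart in these summed levels.

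The 5 genes past 2-fold were Gpnmb, Fabp5, Atp6v0d2, Mmp12 and Spp1. Gpnmb had 592 molecules in the first pool and 1775 in the second, a log2 ratio of 2.48 (interval 2.34 to 2.61). Fabp5 had 394 and 1212 molecules, with a log2 ratio of 2.51 (2.35 to 2.68). Atp6v0d2, at 59 and 155 molecules, had a log2 ratio of 2.28 (1.85 to 2.75). Their intervals lie above 2-fold, which is 1 on this scale, but they treat molecules as independent and leave out the uneven spread over cells. Without the deepest 5% of cells of each pool the log2 ratios were 1.35 for Gpnmb, 1.66 for Fabp5 and 1.81 for Atp6v0d2, below these intervals. Mmp12 had 320 and 469 molecules, a log2 ratio of 1.44 (1.24 to 1.65). Spp1 had 905 and 1204 molecules, a log2 ratio of 1.31 (1.18 to 1.43).

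The receptor, its adaptor, both tetraspanins and galectin-3 were under 2-fold. The log2 ratio was 0.93 for Lgals3 (0.86 to 0.99), 0.82 for Trem2 (0.64 to 1.00) and 0.73 for Cd63 (0.61 to 0.86). Cd9 had a log2 ratio of 0.28 (0.10 to 0.47) and Tyrobp 0.23 (0.15 to 0.31). All 5 intervals lie above 0, as intervals of molecule counts only. In the same gate Saa3 was at 364 CPM in the pool labelled wild-type and 29.4 CPM in the pool labelled Saa3-/-, a log2 ratio of -3.61. Most of the molecules behind the first value lay in 8 cells.

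**Figure D2:**
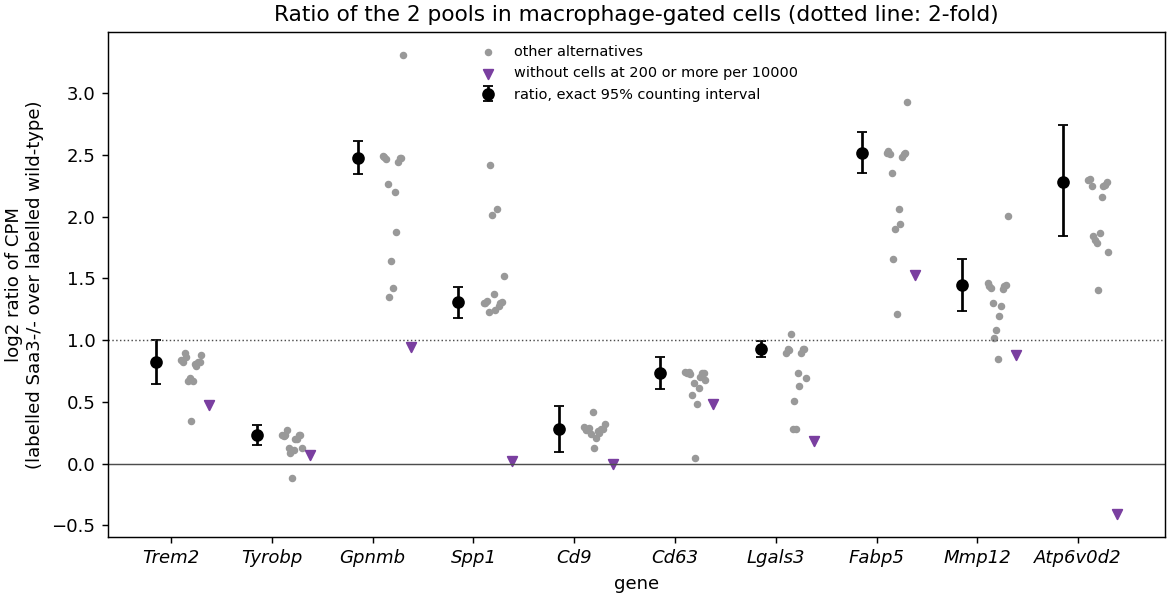
Log2 ratio of CPM between the pools in the macrophage gate for each gene; black points with bars are the ratio and its exact 95% counting interval, grey points other processing choices, and purple triangles the ratio without the cells in which the 10 genes together reach 200 per 10000. Gpnmb stands at 2.48 and at 0.94 without those cells, Spp1 at 1.31 and 0.02.

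The molecules were unevenly spread over cells. The 10 genes together made up a median of 32.4 molecules per 10000 in macrophage-gated cells of the pool labelled wild-type, from a lowest of 8.49 to a highest of 543. In the pool labelled Saa3-/- the lowest, median and highest were 5.82, 36.1 and 930 molecules per 10000. The medians were close, while the value that 10% of cells exceeded was 84.8 in the first pool and 229 in the second. A sum of at least 200 per 10000, a limit chosen after the values were seen, was reached by 3 of 199 cells (1.51%) and by 16 of 139 (11.5%). Between 150 and 250 per 10000 there were 7 and 10 cells, so the limit cuts through a continuous range.

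These high cells carried most molecules of 5 members in the pool labelled Saa3-/-. There, 87.7% of Gpnmb, 87.7% of Atp6v0d2, 83.9% of Spp1 and 76.7% of Fabp5 molecules of the gate lay in the 16 cells, and 52.5% of those of Lgals3. The 3 high cells of the other pool held 58.1% of Gpnmb, 53.8% of Spp1 and 45.4% of Fabp5 molecules, but 5.08% of Atp6v0d2 and 2.81% of Mmp12. Leaving out the 5 cells of each pool highest in the gene kept the count at 5 members at least 2-fold higher. With 3 high cells in one pool and 16 in the other, this can remove every high cell of the first pool only. It can thus raise the ratios and is a description too. The log2 ratio was then 3.31 for Gpnmb, 2.93 for Fabp5, 2.01 for Mmp12, 1.72 for Atp6v0d2 and 1.52 for Spp1. Leaving out the high cells removes 3 cells of one pool and 16 of the other, chosen by the sum of the same 10 genes, so the ratios had to be lower and are given as a description. Fabp5 alone of the 10 was then at least 2-fold higher, with a log2 ratio of 1.52, where 0.905% of all tested genes were. Gpnmb was then at 0.94, Mmp12 at 0.88, Cd63 at 0.49, Trem2 at 0.47, Lgals3 at 0.18, Tyrobp at 0.07, Spp1 at 0.02, Cd9 at -0.01 and Atp6v0d2 at -0.41. The last rests on 56 and 19 molecules.

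Single cells show the mixture directly. The highest cell of the pool labelled Saa3-/- had 124 Spp1, 57 Gpnmb and 17 Lgals3 molecules among 2657, and no Trem2 molecule. The cell next to it had 371 Spp1, 149 Lgals3, 82 Fabp5, 39 Gpnmb and 19 Trem2 molecules among 11719. Another balance was seen in a cell with 231 Gpnmb, 91 Fabp5 and 2 Spp1 molecules among 24774. Gpnmb was at 13 to 361 molecules in each of the 16 high cells, while Spp1 ranged from 0 to 371. Both genes are in the sum that chose these cells. In the pool labelled wild-type the 3 high cells had 63, 57 and 224 Gpnmb and 27, 460 and 0 Spp1 molecules.

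**Figure D3:**
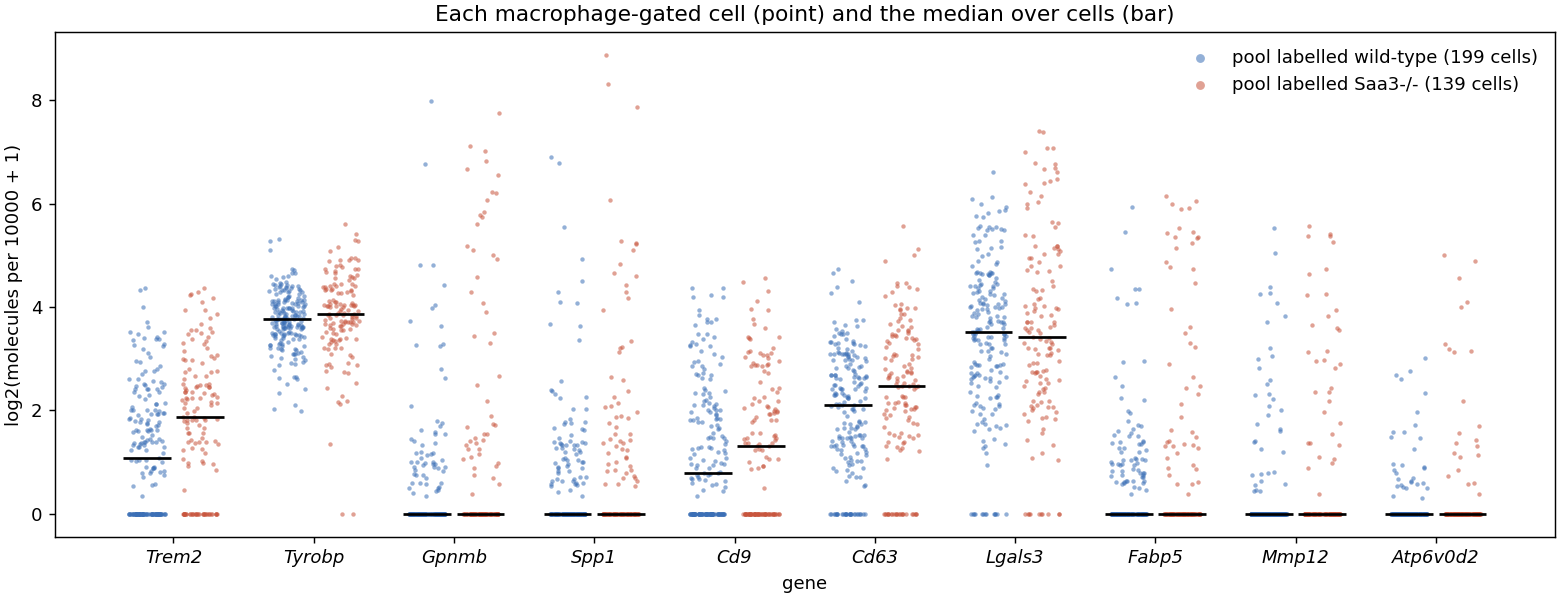
Each macrophage-gated cell as a point, as log2(molecules per 10000 + 1) of each gene, with the median over cells as a bar; blue is the pool labelled wild-type (199 cells) and red the pool labelled Saa3-/- (139 cells). For Gpnmb, Spp1, Fabp5, Mmp12 and Atp6v0d2 the median is at 0 in both pools and the pools differ in the upper points, while Tyrobp and Lgals3 are found in nearly all cells.

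The share of cells with a molecule depends on depth, so each cell was also thinned to 2000 molecules, which left 195 and 137 macrophage-gated cells. Gpnmb was found in 30.7% and 36.0% of cells before thinning, and in 12.8% (Wilson 95% interval 8.84 to 18.2) and 19.7% (13.9 to 27.2) after it. The intervals overlap. T and B cells, which should lack Gpnmb and had gate medians of 3276 to 4643 molecules, gave 4.17% and 8.74% thinned for Gpnmb. For Fabp5 the unthinned shares, 37.2% and 35.3%, ran against the CPM, and the thinned ones were 8.72% (5.51 to 13.5) and 21.2% (15.2 to 28.7). Thinned T and B cells had Fabp5 in 10.7% and 8.74%, and fibroblasts in 2.56% and 0%. T cells had 83.0 and 69.5 CPM of Fabp5, beside 19.8 and 17.5 CPM in fibroblasts, so their share was not read as background. Trem2 was found in 60.8% and 74.8% of cells unthinned, and in 32.3% (26.1 to 39.2) and 43.1% (35.1 to 51.4) thinned, beside 2.98% and 1.40% of thinned T and B cells. Tyrobp was found in 95.4% and 93.4% of thinned macrophage-gated cells and in 16.1% and 17.1% of T and B cells. Its interval in each pool, 91.5 to 97.6 and 88.0 to 96.5, contains the other value.

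Members were then counted per thinned cell. A macrophage-gated cell held a median of 3 of the 10 in both pools. The pool labelled wild-type had 9 cells of 195 with at least 7, 4.62% (2.45 to 8.54), and the pool labelled Saa3-/- had 20 of 137, 14.6% (9.65 to 21.5). These intervals do not overlap, but they cover the counting of cells within 1 pool each, and cells are not replicates. At least 9 were found in 1 and in 9 cells. No T or B cell held more than 4, over 168 and 286 thinned cells, and no monocyte-, dendritic- or fibroblast-gated cell held 7. Of other cells, 1 smooth-muscle-gated cell of the pool labelled wild-type held 8, and 2 and 3 ungated cells of the pools held at least 7. The plot of genes per cell shows the pools side by side.

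**Figure D4:**
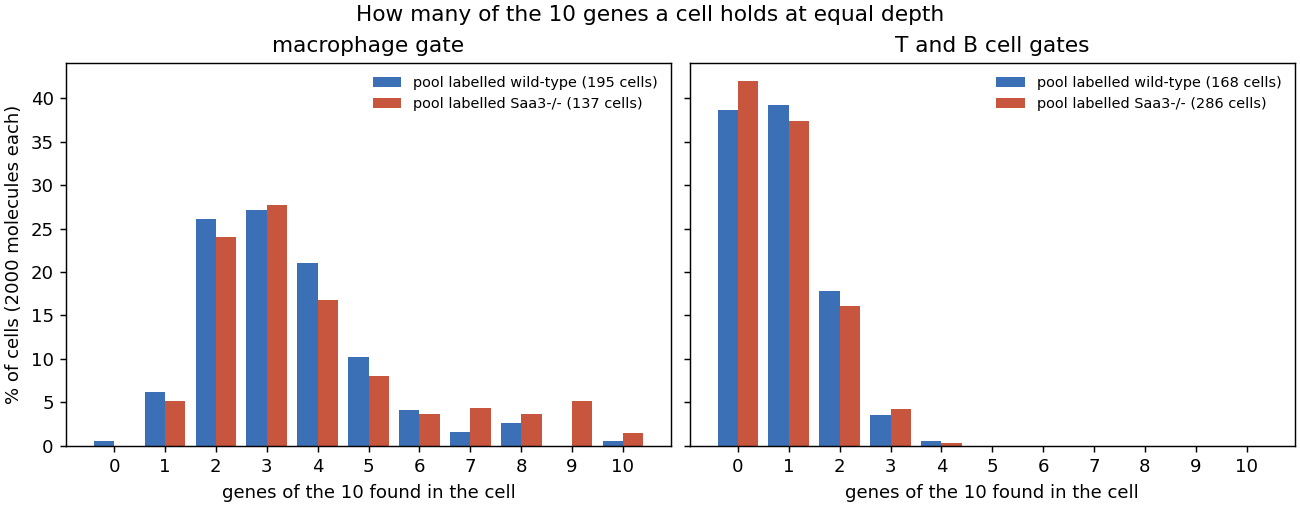
Percentage of cells (y axis) that hold each number of the 10 genes (x axis) after thinning to 2000 molecules, in the macrophage gate (left) and in T and B cells (right); blue bars are the pool labelled wild-type and red bars the pool labelled Saa3-/-. At least 7 genes were found in 4.62% and 14.6% of macrophage-gated cells and in no T or B cell.

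Which members go together was described by the Spearman correlation of thinned molecules over macrophage-gated cells, for each of the 45 pairs. The points of a pool share a library, and sparse counts hold such correlations down. The median pair stood at 0.15 in the pool labelled wild-type (195 cells) and 0.30 in the pool labelled Saa3-/- (137 cells). In the first pool 42 pairs were above 0 and 9 were at 0.2 or more. In the second all 45 were above 0 and 36 at 0.2 or more, and 43 pairs had the higher value there. All members but Tyrobp and Lgals3 were found in a smaller share of the thinned cells of the first pool, so the 2 pools' correlations are not on equal terms. The share of cells with both members was also set against the product of their 2 shares. It was above that product for 40 pairs in the first pool and 39 in the second, with median ratios of 1.27 and 1.47. The highest pair in both pools was Gpnmb with Fabp5, at 0.31 and 0.80.

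Gpnmb was the member most tied to the rest in the pool labelled Saa3-/-. Its correlation with the summed other 9 was 0.26 in the first pool and 0.63 in the second, and that of Fabp5 was 0.27 and 0.57. Lgals3 stood at 0.21 and 0.47, and Mmp12 at 0.22 and 0.42. Trem2 itself was at 0.23 and 0.32, and its highest partner in the second pool was Gpnmb, at 0.46. Tyrobp, found in nearly every macrophage, was at 0.04 and 0.23. Depth was weakly tied to these values: the sum of the 10 correlated with a cell's total molecules at 0.13 and 0.17.

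**Figure D5:**
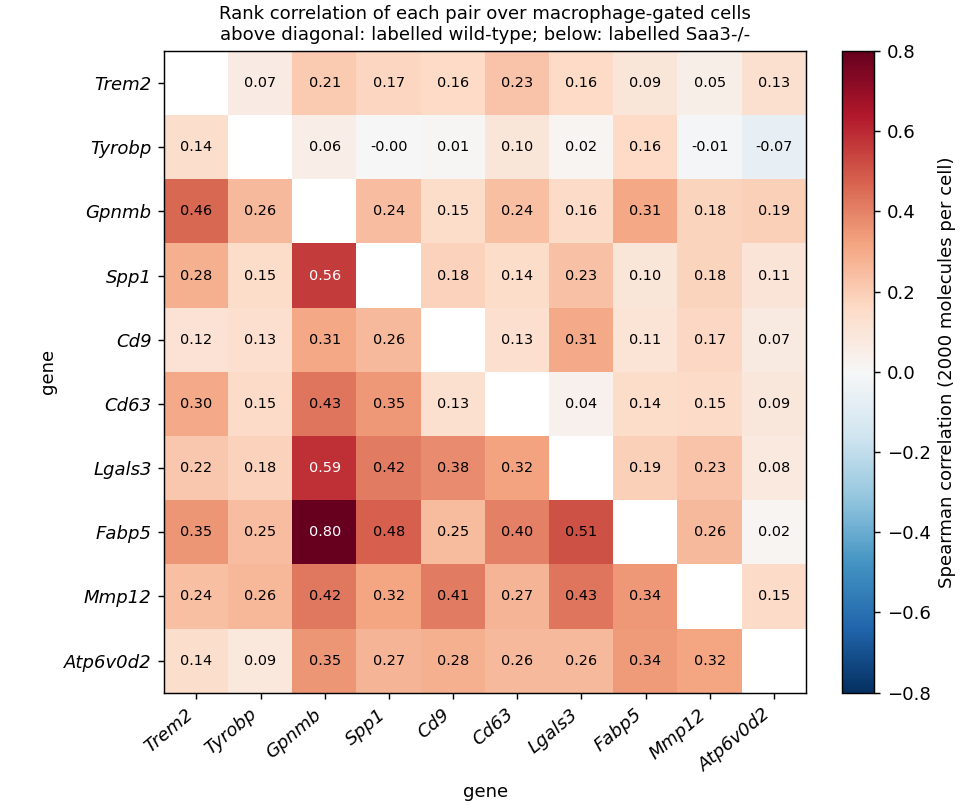
Spearman correlation of each pair of genes over macrophage-gated cells thinned to 2000 molecules, above the diagonal for the pool labelled wild-type (195 cells) and below it for the pool labelled Saa3-/- (137 cells). Gpnmb with Fabp5 is the highest pair in both, at 0.31 and 0.80, and Tyrobp is near 0 with most genes in the first pool.

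Other genes were ranked by their likeness to the summed 10 members over macrophage- and monocyte-gated cells, 227 and 166 of them, among 3174 genes with at least 0.1 molecules per cell. The order follows the lower of the 2 pools' Spearman correlations. Lpl, which encodes lipoprotein lipase, led at 0.34 and 0.37, followed by Abcg1, a cholesterol exporter, at 0.30 and 0.33. Next came Psap, the lysosomal prosaposin (0.29 and 0.38), Cd68, a lysosomal glycoprotein of macrophages (0.29 and 0.55), and Adam8, a surface protease (0.28 and 0.34). Cd68 is also 1 of the 10 markers of the macrophage gate. The rest of the 15 most alike were Vim, Mpeg1, Ftl1-ps1, Taldo1, Actg1, Gpr137b, Anxa5, Gpx1, Ctsb and Anxa1, whose lower values were 0.23 to 0.26. These are weak correlations, and only Lpl was at 0.3 or more in both pools.

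The 5 genes least like the sum had negative correlations in both pools. Tmem176b was at -0.40 and -0.35, Mrc1, the mannose receptor, at -0.35 and -0.37, and Ctsc, the protease cathepsin C, at -0.31 and -0.38. Serinc3 was at -0.31 and -0.46, and Selenop, a secreted selenoprotein, at -0.30 and -0.35. Mrc1 is a marker of the macrophage gate, so its place is set in part by the choice of cells. Whole lists were summed in the same way, over the cells of both gates, so the difference between the gates enters these values as well. The resident vascular macrophage list, which contains Mrc1 and Selenop, was at -0.36 and -0.38 and the MHC class II list at -0.29 in both pools. The other lipid-associated macrophage genes were at 0.23 and 0.42, and MiT/TFE factors with V-ATPase subunits at 0.25 and 0.31. The inflammatory list was at 0.04 in the first pool and -0.32 in the second.

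Other lists were then described in the cells high in the 10 genes. In the 16 high cells of the pool labelled Saa3-/- the other lipid-associated macrophage genes made up a median of 846 molecules per 10000 (lowest 526, highest 1347), against 362 (106 to 948) in the 123 remaining cells. The MHC class II genes had medians of 42.0 and 281 per 10000, the resident list 20.3 and 52.2, and the inflammatory list 6.44 and 35.1. V-ATPase and MiT/TFE genes had medians of 48.7 and 28.3. The ranges overlap for each list. In the 3 high cells of the pool labelled wild-type the resident list had a median of 56.3, against 66.6 in the other 196, the MHC class II genes 156 against 394 and the other lipid-associated macrophage genes 1090 against 352. Macrophage markers in the pool labelled Saa3-/- had a median of 112 per 10000 in the high cells and 152 in the others. Fibroblast markers, at 8.10 and 9.85, and T cell markers, at 1.23 and 1.62, were no higher in the high cells. The highest B cell marker sum in a high cell was 18.5 per 10000, in 1 cell. The high cells had a median of 11264 molecules, against 6780.

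The companion lists, also chosen with earlier results of these data known, were then compared between the pools in the macrophage gate. Of the 34 tested other lipid-associated macrophage genes, 33 had a log2 ratio above 0. Their median was 0.35, beside 0.03 for all tested genes. None was 2-fold lower, and 4 were at least 2-fold higher in the pool labelled Saa3-/- (0.929% of all tested genes were). The 4 were Lpl, with 549 and 1271 CPM (log2 ratio 1.21), Ctsk, cathepsin K, with 8.55 and 69.1 CPM (2.99), Fabp4, with 11.1 and 63.6 CPM (2.50), and Syngr1, with 17.1 and 58.8 CPM (1.77). In the high cells this list had medians of 1090 per 10000 (pool labelled wild-type) and 846 per 10000 (pool labelled Saa3-/-). In the remaining macrophage-gated cells its medians were 352 and 362 per 10000. The ratios of its genes without the high cells were not tested. None of the 18 tested genes of TREM2 and TYROBP signalling was past 2-fold in either direction, and their median was -0.01. The same count of 0 held for the 18 MiT/TFE and V-ATPase genes (median 0.11), the 11 other tetraspanins (-0.18) and the 4 other galectins (-0.13). Of all tested genes 0.929% were at least 2-fold higher and 0.982% at least 2-fold lower. A count of 0 in lists this short is near those shares and is no result about these genes. In summed levels Atp6v0d2, at 59 and 155 molecules, differed by more between the pools than any of the other proton pump subunits tested. Of the 155 molecules 136 lay in the 16 high cells, and its log2 ratio was -0.41 without the high cells. Fabp4 was the only other fatty acid binding protein with enough molecules.

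Of 14 genes listed as osteopontin receptors and matrix partners, 1 was past 2-fold: Mmp9, a gelatinase that is also a neutrophil marker here, with 38.1 and 11.1 CPM (log2 ratio -1.73). None of 11 resident genes (median -0.31), 7 MHC class II genes (-0.12) and 12 inflammatory genes (0.31) was past it, which is also near the shares of all tested genes. The interferon response list stood on the other side, with 8 of 10 genes at least 2-fold lower, against 0.982% of all tested genes, and a median of -1.63. Ifit2 had 145 and 9 molecules (log2 ratio -3.04), Rsad2 218 and 33 (-1.81), Irf7 345 and 81 (-1.19) and Isg15 188 and 45 (-1.16).

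Members were compared in the 3 other gates with at least 50 cells per pool. In T cells 7 members had enough molecules and none was past 2-fold, where 1.84% of genes were higher and 1.59% lower. In fibroblasts 1 of 6 was, Spp1, at 262 and 1434 molecules (log2 ratio 2.74, interval 2.55 to 2.94), where 2.55% of genes were higher and 1.86% lower. Without the 2 cells of the pool labelled Saa3-/- that were highest in Spp1 the log2 ratio was 0.82, 289 against 510 CPM. The first of these cells had 815 Spp1 and 0 Saa3 molecules, and the other had 267 Spp1 and 325 Saa3 molecules. The first had 416 fibroblast marker molecules per 10000 beside 6.12 of macrophage markers.

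In smooth muscle cells 4 of 7 members were at least 2-fold lower in the pool labelled Saa3-/-, where 1.28% of genes were lower and 0.55% higher. The 4 were Spp1 (197 and 22 molecules), Gpnmb (95 and 12), Lgals3 (304 and 80) and Fabp5 (48 and 6). A cell of the pool labelled wild-type held 172 Spp1, 102 Lgals3, 60 Gpnmb, 21 Fabp5 and 3 Trem2 molecules among 14191, with 91.6 smooth muscle and 32.4 macrophage marker molecules per 10000. It thus held most Spp1 and Gpnmb molecules of that gate and pool, and fewer of Lgals3 and Fabp5. Without it the log2 ratio was -0.51 for Lgals3. Gpnmb, at 35 and 12 molecules, was at -0.68, Fabp5, at 27 and 6, at -1.26 and Spp1, at 25 and 22, at 0.65, each with fewer than 50 molecules over both pools. Whether 1 or 2 cells lay under this barcode was not tested.

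Cells at 200 or more per 10000 were also counted outside the macrophage gate. Over all kept cells there were 5 in the pool labelled wild-type and 22 in the pool labelled Saa3-/-. The ungated cells held 1 and 5 of them, with 3 to 96 Gpnmb and 18 to 203 Lgals3 molecules each. No monocyte-, dendritic-, T or B cell-gated cell reached the limit. With Leiden clusters in place of the gate, 1 macrophage cluster, singled out after its values were seen, gathered 37 and 49 cells and had 1204 and 3292 CPM of Gpnmb. In that cluster Trem2 was at 540 and 599 CPM.

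Saa3 was set beside the 10 genes in single cells. In the pool labelled wild-type 8 macrophage-gated cells held at least 10 Saa3 molecules, a limit chosen after the values were seen, and together 786 of the gate's 852. The 10 members summed to a median of 25.5 per 10000 in these 8 cells (13.2 to 44.0) and to 32.7 in the other 191 (8.49 to 543). Gpnmb was at 18.1 CPM in the 8 cells and 271 CPM in the others, Spp1 at 30.1 and 414 CPM, and Trem2 at 84.4 and 240 CPM. Tyrobp was at 1326 and 1362 CPM and Atp6v0d2 at 24.1 and 25.3 CPM. The other 191 cells include the 3 cells high in the members. Those 3 held 58.1% of the Gpnmb and 53.8% of the Spp1 molecules of this gate and pool, so the values of the 191 rest largely on them for these genes. The low values in the 8 cells rest on few molecules. Of the 3 cells high in the members, 1 held 8 Saa3 molecules and the others 0. With so few cells of either kind, their overlap was not tested. No macrophage-gated cell of the pool labelled Saa3-/- held 10.

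The members lie on 9 chromosomes, with Gpnmb and Cd9 both on chromosome 6. On GRCm38, in GENCODE release M21, Trem2 (ENSMUSG00000023992) spans chr17:48346401-48354147, Tyrobp (ENSMUSG00000030579) chr7:30413760-30417585 and Gpnmb (ENSMUSG00000029816) chr6:49036546-49070929, all on the plus strand. Spp1 (ENSMUSG00000029304) spans chr5:104435118-104441050, Cd63 (ENSMUSG00000025351) chr10:128900989-128912822 and Lgals3 (ENSMUSG00000050335) chr14:47367751-47386160, on the plus strand too. Fabp5 (ENSMUSG00000027533) spans chr3:10012548-10016607 and Mmp12 (ENSMUSG00000049723) chr9:7344381-7369499, on the plus strand. Cd9 (ENSMUSG00000030342) spans chr6:125460266-125494791 and Atp6v0d2 (ENSMUSG00000028238) chr4:19876841-19922605, on the minus strand. All are protein-coding.

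Some counts could be shared with other loci, since the counting of near-identical sequence is not given in the sources used here. Of the 50-base stretches of its transcripts, Spp1 shares 11.6% with Gm42793, which overlaps it on the same strand, and Cd63 shares 11.0%, most often with the pseudogene Cd63-ps. The share is 5.67% for Cd9 and 5.48% for Fabp5, and 0.498% for Mmp12. Trem2, Tyrobp, Gpnmb, Lgals3 and Atp6v0d2 share none. On the opposite strand, Gm28809 and Gm26728 overlap Cd9 and Mmp1b overlaps Mmp12, and whether the counting used strand is not given in the sources used here either.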

How the data were processed

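Single aortic cells were profiled with the BD Rhapsody whole-transcriptome assay. Per the file headers, molecules were counted by the BD Rhapsody WTA Analysis Pipeline 1.11.1 on GRCm38 with GENCODE M19. The deposited tables, 1 per sample tag, hold whole-number counts of molecules per gene and cell with no normalization. Per the submitters' processing notes, R 4.3.1 and Seurat 4.3.0 were used. Which tag is which genotype is given by the names of the tables. Every cell's deposited tag call matched its table, and cells called as multiplets (11) or undetermined (647) are not in the tables. No doublet caller was run. A further treatment given to both groups is not reported here.

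The members and lists were chosen with earlier results of these data known. Cells above 25% mitochondrial molecules were left out (56 and 31). The gate used 14 panels of 114 markers, log1p counts per 10000 and z-scores over all kept cells. Counts were summed per gate and pool. Ratios used a pseudocount of 0.5 molecule and exact intervals for 2 Poisson counts, and genes needed 50 molecules over both pools. "2-fold" is a limit of size, with no test. Shares have Wilson 95% intervals, thinning used seed 20, and a count of 0 was read as up to 3 molecules. PCR and cell-to-cell variation are not in the intervals of molecule counts, and differences between mice are in none of the intervals. Genes named are the 10 members, the 15 most and 5 least alike, up to 4 genes past 2-fold per list, and Saa3. Clec7a, of the lists, was not analysed here. Python 3.11.15, scipy 1.17.1, scanpy 1.11.5 and leidenalg 0.10.2 were used, and the functions were tested on simulated data.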

Additional observations from a re-analysis of the deposited data

How the results depend on the processing

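No paired analysis was possible because each genotype is 1 pool, and leaving out a replicate was not possible for the same reason. The count of 5 members at least 2-fold higher in the pool labelled Saa3-/- was 4 to 6 under 13 of 14 alternatives. It was 1 without the cells at 200 or more per 10000, which the sum of the same genes chose, where Atp6v0d2 turned to -0.41. Over the 14 alternatives the log2 ratio of Gpnmb ran from 0.94 to 3.31, of Fabp5 from 1.21 to 2.93, of Spp1 from 0.02 to 2.42, of Mmp12 from 0.85 to 2.01 and of Trem2 from 0.35 to 0.90. Tyrobp was at -0.12 over all kept cells with no gate, and Cd9 at -0.01 without the high cells. Without 1 smooth-muscle-gated cell, Spp1 in that gate turned from -2.28 to 0.65. With cells thinned to 1000 molecules, at least 7 members were found in 1.51% and 7.91% of macrophage-gated cells. Of the 15 most alike genes, 9 were among the 15 by Pearson correlation of log1p counts and 13 with macrophage-gated cells only. Of 120 shares of cells with a member under alternatives, 45 moved beyond their interval, 44 of them with the thinning depth. The alternatives without high cells (those in the fibroblast and smooth muscle gates included), without a gate, or with monocytes and ungated cells added were chosen after seeing the data. Depth limits Atp6v0d2 most, at 59 and 155 molecules.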
